A study of Mus musculus with 15 samples.

Results

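The REG lectins and the transporter of immunoglobulin A (IgA) were taken as 6 genes chosen by symbol, Reg1, Reg3a, Reg3b, Reg3g, Reg4 and Pigr. All 6 were among the 24594 gene rows of the table of sorted small intestinal epithelium, and all 6 passed the filter on low counts that left 13314 tested genes. RNA-seq counts were compared between 3 libraries of fetal epithelium and 3 libraries of adult crypt epithelium, all from C57Bl/6J mice without treatment. The fetal cells came from proximal intestine at stage E16.5 and were sorted as EpCAM+/DAPI-/CD31-/CD45-, with no genotype in the labels. The adult cells were wild type and came from crypts of the first 20% of the small intestine, sorted as EpCAM+/DAPI-/Lin-/CD24mid. The sources used here give neither the adults' age nor the number of animals in a library. The sort gate and, by counts of Y-linked genes, the sex composition changed together with age. The effects of age, gate and sex on every value below therefore cannot be told apart. The organoid libraries of the series stand in a table without gene names and were not analysed here.

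REG proteins are small secreted C-type lectins of the gut and pancreas. The intestinal REG3 members bind bacterial surfaces and keep bacteria away from the epithelium, and in mice their genes are induced through interleukin 22 and STAT3 and through MyD88-dependent sensing of microbes. Pigr encodes the polymeric immunoglobulin receptor, which picks up dimeric IgA at the base of the epithelial cell, carries it through the cell and releases it into the lumen. Transcription of both Reg3g and Pigr is known to increase in the mouse intestine after birth.

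Total counts were 7888998 to 10538004 in the fetal and 5795518 to 6045113 in the adult libraries. The biological coefficient of variation was 9.83% among fetal and 11.3% among adult libraries. No library repeated another of its group: the chi-square over genes was at least 5.08 times its degrees of freedom in every pair. Nothing in the labels ties the libraries to different animals, and p-values therefore cover only the spread between libraries, which may be technical. All 8 epithelial markers had counts in both groups, and 6 of them fell in fetal cells while 0 rose. They summed to 5074 to 5199 CPM (read counts scaled to library size) in fetal libraries, against 7365 to 7775 CPM in adult libraries. Markers of mesenchyme, a tissue outside the gate, rose in 10 of 10 cases, 9 of them with an adult mean under the filter's level of 1.44 CPM and so tested through the fetal group, with sums of 148 to 208 CPM in fetal libraries, against 7.25 to 15.9 CPM in adult libraries, where Sparc and Postn were at 0. Their part in the results was not tested.

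The Reg genes other than Reg4 lie side by side, and the stretches before their starts are shown because the members of this cluster moved in the same direction. The run TATAAA, the core of a TATA box, stood close to the start of the 3 members of the cluster printed here. The lines give the 250 bases before the start of transcription, 5′ to 3′ on the strand of the gene, from RefSeq on GRCm38.p6, the assembly called mm10. They cover chr6:78370635-78370884 (plus strand) for Reg3b, chr6:78468875-78469124 (minus) for Reg3g, chr6:78425733-78425982 (plus) for Reg1, chr3:98221906-98222155 (plus) for Reg4 and chr1:130826434-130826683 (plus) for Pigr. Capitals mark every match to a searched motif. The promoter table places the start of Reg4 inside the gene record, so the last 18 bases of that window lie within the gene as mapped further on.
Reg3b: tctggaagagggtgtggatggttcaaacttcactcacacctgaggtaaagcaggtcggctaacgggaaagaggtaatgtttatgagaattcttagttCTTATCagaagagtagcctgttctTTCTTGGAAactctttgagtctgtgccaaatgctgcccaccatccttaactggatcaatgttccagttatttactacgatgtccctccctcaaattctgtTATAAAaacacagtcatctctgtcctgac
Reg3g: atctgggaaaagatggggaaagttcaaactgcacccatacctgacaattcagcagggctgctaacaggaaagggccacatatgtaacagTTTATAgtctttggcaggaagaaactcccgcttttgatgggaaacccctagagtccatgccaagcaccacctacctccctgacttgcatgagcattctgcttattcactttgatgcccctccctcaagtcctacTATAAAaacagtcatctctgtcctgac
Reg1: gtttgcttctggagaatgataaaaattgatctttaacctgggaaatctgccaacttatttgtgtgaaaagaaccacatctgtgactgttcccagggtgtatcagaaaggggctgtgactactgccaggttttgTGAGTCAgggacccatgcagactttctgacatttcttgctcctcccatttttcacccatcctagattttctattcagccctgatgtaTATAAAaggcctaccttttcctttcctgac
Reg4: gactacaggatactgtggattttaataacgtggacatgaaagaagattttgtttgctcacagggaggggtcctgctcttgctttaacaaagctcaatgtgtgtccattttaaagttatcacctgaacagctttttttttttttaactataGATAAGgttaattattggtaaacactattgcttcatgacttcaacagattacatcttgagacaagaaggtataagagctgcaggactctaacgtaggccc
Pigr: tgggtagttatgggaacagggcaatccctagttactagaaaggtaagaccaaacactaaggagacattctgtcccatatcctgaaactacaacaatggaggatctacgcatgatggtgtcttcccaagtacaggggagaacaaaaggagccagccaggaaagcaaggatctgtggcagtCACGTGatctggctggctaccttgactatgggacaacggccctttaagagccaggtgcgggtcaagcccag

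The TATAAA match began at position -29 in Reg3b, -27 in Reg3g and -30 in Reg1, counting back from -1 at the last base before the start. Reg3g held a second match on the other strand at -161. Of all 32851 RefSeq promoter windows of this length, 12.4% held TATAAA on either strand. The STAT motif TTCNNNGAA, which reads the same on both strands, matched at -129 in Reg3b, against 7.02% of all windows. The E box CACGTG, also the same on both strands, matched at -71 in Pigr, against 6.02% of windows. The AP-1 motif TGANTCA matched at -117 in Reg1, against 6.75%, and GATAAG matched at -100 in Reg4 and, on the other strand, at -153 in Reg3b, against 6.55%. The interferon response element (2.98% of windows) and the NF-kB motif (0.356%) matched in no member, and the Reg3a window held none of the motifs. Marked matches did not overlap one another. The Reg3b and Reg3g windows were 68.4% identical when aligned and shared the run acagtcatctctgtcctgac just before the start, whereas the other pairs of Reg windows were 43.9% to 54.4% identical.

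All 6 members fell in fetal epithelium relative to adult crypt cells. The fall was deepest in Reg3g, Pigr and Reg3b, which were lower by 248-fold, 179-fold and 91.3-fold on the fitted scale, and it was smaller in Reg4 and Reg1, which were lower by 9.93-fold and 8.40-fold. Reg3a was the least abundant member in both groups. For comparison, 54.9% of tested genes were called different, 25.9% lower and 29% higher, at an adjusted p under 0.05 in edgeR's quasi-likelihood test with Benjamini-Hochberg adjustment over all tested genes. The median log2 fold change was -6.06 over the members and 0.0062 over all tested genes. Of the members 2, Reg3g and Reg3a, had a fetal mean under the filter's level of 1.44 CPM and entered the test through the adult group. The members were also chosen with earlier results of these data known, so setting the medians side by side is no test. In bulk libraries, fewer cells of a type and less RNA per cell cannot be told apart.

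**Figure D1:**
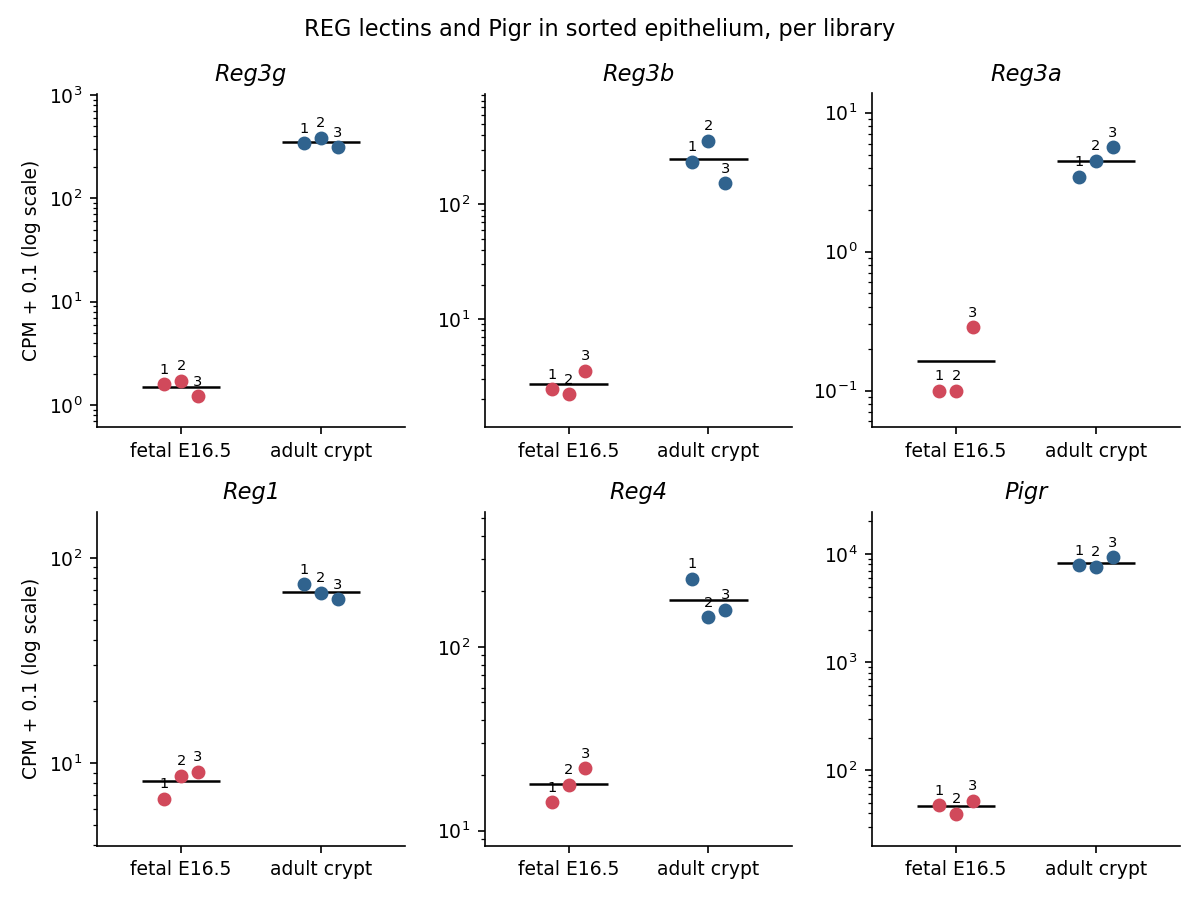
CPM of each member with 0.1 added, on log axes, in 3 fetal and 3 adult libraries (points, numbered by replicate, with the group mean as a line). In each of the 6 genes the fetal points lie below the adult points, with Reg3g at 1.12 to 1.62 CPM in fetal and 315 to 388 CPM in adult libraries.

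Reg3g, a lectin that binds peptidoglycan and acts on Gram-positive bacteria, had levels of 1.49, 1.62 and 1.12 CPM in fetal replicates 1 to 3, against 342, 388 and 315 CPM in adult replicates 1 to 3. These rest on 12, 13 and 12 fetal counts, against 1936, 2293 and 1825 adult counts. The fetal libraries were all low, the adult libraries were all high and close together, and the groups did not overlap, a pattern (no overlap, lower in fetal cells) that 29.6% of all tested genes showed. The log2 fold change was -7.96 ± 0.16 (approximate SE, edgeR adjusted p = 3.22e-12), and 14 tested genes had a more negative one. Only 2 of the 3 fetal libraries reached the level the filter asks for, 1.44 CPM, so Reg3g entered the test through the adult group.

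Reg3b, its neighbour in sequence, binds Gram-negative bacteria and is also made by the inflamed pancreas. It stood at 2.37, 2.12 and 3.46 CPM in fetal libraries, against 236, 359 and 153 CPM in adult libraries. Adult replicate 2 was the highest and adult replicate 3 the lowest, and the coefficient of variation was 27.0% in fetal and 41.5% in adult cells, the widest adult spread of the 6 members. The groups did not overlap, and the log2 fold change was -6.51 ± 0.33 (edgeR adjusted p = 3.97e-09). Goblet cell markers were also lowest in adult replicate 3, at 17766 CPM in sum against 33352 and 31892 CPM in adult replicates 1 and 2, and their part in the Reg3b spread was not tested.

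Reg3a, whose human counterpart is bactericidal, had 0, 0 and 2 counts in fetal libraries, against 19, 26 and 32 counts in adult libraries. That is 0, 0 and 0.187 CPM in fetal cells, against 3.35, 4.40 and 5.52 CPM in adult cells, and a count of 0 allows up to 0.374 CPM in fetal replicate 1. The groups did not overlap. Pooled over libraries, the adult-to-fetal ratio was 59.3 with an exact 95% counting interval of 15.9 to 498, which covers counting error only. Reg3a passed the filter through the adult libraries alone and had to differ to be tested. Its fitted log2 fold change of -5.61 ± 0.62 (edgeR adjusted p = 6.20e-06) was -7.89 without fetal replicate 3, the only fetal library with counts. That library also stood apart in stomach markers, with a sum of 49.8, 42.5 and 334 CPM in fetal replicates 1 to 3, against 15.2 to 15.7 CPM in adult libraries. Of 7 tested stomach markers 5 rose, 4 of them with an adult mean under the filter's level, and 1 fell, with a fetal mean under it. Such markers entered the test through the other group, where they had to be higher. Among stomach markers, 6 of the 11 in the table had 0 adult counts, and Sox2 had 1, 0 and 76 counts in fetal replicates 1 to 3. Reg3b, Reg1, Reg4 and Pigr were also at their fetal highest in replicate 3. Without it their log2 fold changes were -6.78, -3.16, -3.48 and -7.57, each further from 0 than with it. Reg3g went the other way. It was at its fetal lowest in replicate 3, at 1.12 CPM, and its log2 fold change was -7.78 without that library, against -7.96 with it. The part of stomach cells in the levels of the members was not tested.

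Reg1, a lectin of pancreatic juice that the gut also makes, stood at 6.60, 8.59 and 8.98 CPM in fetal libraries, against 74.3, 67.7 and 62.8 CPM in adult libraries. Replicates of each group lay close together and the groups did not overlap. The log2 fold change was -3.07 ± 0.14 (edgeR adjusted p = 1.27e-09). Markers of pancreatic acinar cells rose in the same fetal libraries, with 15 of 15 tested markers called higher, 11 of which had an adult mean under the filter's level and so had to differ to be tested. Their sum was 1982, 4107 and 2080 CPM in fetal replicates 1 to 3, against 30.7, 32.9 and 17.1 CPM in adult replicates 1 to 3. In fetal replicates 1 to 3 Reg1 had 53, 69 and 96 counts, and its levels in replicates 2 and 3 lay close together, at 8.59 and 8.98 CPM. Reg2, a related pancreatic REG gene next to Reg1, had 0 counts in all 6 libraries, which allows up to 0.112 CPM over the fetal and 0.173 CPM over the adult libraries. The part of pancreatic cells in the fetal level of Reg1 was not tested.

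Reg4, a lectin of enteroendocrine and other secretory cells of the gut, stood at 14.2, 17.7 and 21.8 CPM in fetal libraries, against 235, 145 and 159 CPM in adult libraries. Adult replicate 1 stood above the other adult libraries, and the groups did not overlap. The log2 fold change was -3.31 ± 0.19 (edgeR adjusted p = 1.35e-08). Of 18 tested enteroendocrine markers 14 rose, 3 of them with an adult mean under the filter's level, and 2 fell. Their sum was 2950 to 3983 CPM in fetal libraries, against 2178 to 2689 CPM in adult libraries. Of 9 tested Paneth markers 6 fell, 4 of them with a fetal mean under the filter's level, and 1 rose, and the sum was 58.1 to 78.1 CPM in fetal libraries, against 178 to 267 CPM in adult libraries. Of 11 goblet markers 7 fell and 1 rose, and the sum was 4997 to 7600.0 CPM in fetal libraries, against 17766 to 33352 CPM in adult libraries. The part of these cell types in the level of Reg4 was not tested.

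Pigr, the IgA transporter, stood at 47.1, 39.3 and 51.8 CPM in fetal libraries, against 7875, 7609 and 9314 CPM in adult libraries. It carried the most counts of any member, 1248 in the fetal and 143539 in the adult group, and thus the smallest counting error. Adult replicate 3 was the highest and the groups did not overlap. The log2 fold change was -7.48 ± 0.16 (edgeR adjusted p = 3.66e-12), and 23 tested genes had a more negative one. Crypt base stem cell markers fell in the same comparison, 8 of 8 tested, with sums of 368 to 525 CPM in fetal libraries, against 8947 to 11872 CPM in adult libraries. Their sum was likewise highest in adult replicate 3, and most of it was Olfm4, which averaged 7470 CPM in adult libraries. Enterocyte markers moved the other way, with 10 of 12 tested higher and 2 lower, and sums of 7178 to 9396 CPM in fetal libraries, against 3093 to 3900 CPM in adult libraries. The part of these cell types in the level of Pigr was not tested.

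**Figure D2:**
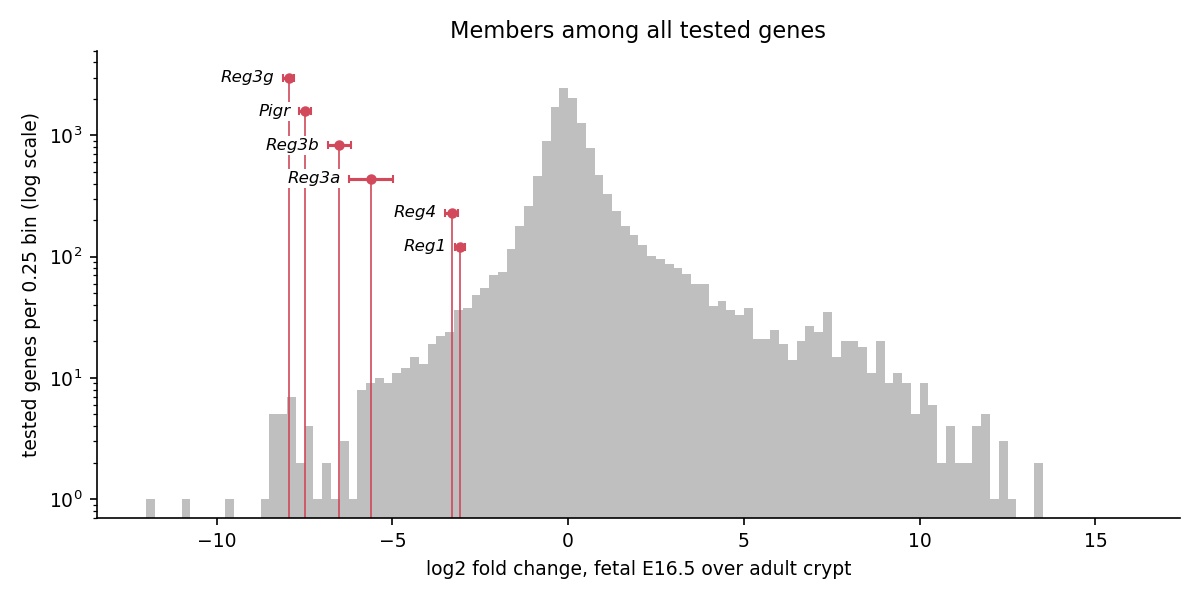
Histogram of the log2 fold change, fetal over adult, of the 13314 tested genes in bins of 0.25 (grey, log axis), with each member at its own value (red point, bar of 1 approximate SE). All 6 members lie left of 0, from Reg3g at -7.96 to Reg1 at -3.07.

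Levels of different genes were set side by side as CPM per kilobase of the longest protein-coding transcript in GENCODE vM21. In fetal cells Reg4 was first at 17.5 ± 3.73 (SD, n = 3), followed by Pigr at 11.97 ± 1.64, Reg1 at 8.91 ± 1.41, Reg3b at 3.38 ± 0.914, Reg3g at 1.83 ± 0.334 and Reg3a at 0.0756 ± 0.131 CPM per kb. Neighbours in the fetal order did not overlap over the 3 libraries, although Pigr reached 13.5 and Reg4 began at 13.9 CPM per kb. In adult cells Pigr was first at 2148 ± 238 (SD, n = 3), followed by Reg3g at 452 ± 48.2, Reg3b at 318 ± 132, Reg4 at 176 ± 47.4, Reg1 at 75.5 ± 6.37 and Reg3a at 5.36 ± 1.31 CPM per kb. Adult Reg3g and Reg3b overlapped over the 3 libraries, as did adult Reg3b and Reg4. Within each adult library, however, Reg3g stood above Reg3b and Reg3b above Reg4. Reg3g thus came after Reg4, Reg1 and Reg3b in fetal cells and before them in adult cells.

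The make-up of the REG signal differed between the groups along with its size. Reg4 and Reg1 made up 54.5% ± 2.03 and 27.9% ± 1.82 (SD, n = 3) of the summed REG level per kb in fetal cells, and 17.4% ± 4.96 and 7.46% ± 1.03 of it in adult cells. Reg3g and Reg3b made up 5.93% ± 1.83 and 10.5% ± 1.77 in fetal cells, and 44.4% ± 3.92 and 30.1% ± 7.78 in adult cells. The groups did not overlap for any of these 4 genes. Reg3d, a family member best known from the pancreas, had too few counts for a test, 6 in fetal and 7 in adult libraries. Together the 7 REG genes took 0.00308% ± 0.00055 of the counts of a fetal library and 0.0836% ± 0.0128 of those of an adult library, a difference of -0.0805 percentage points (two-sided exact permutation p = 0.1, the smallest that 3 against 3 libraries allow).

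**Figure D3:**
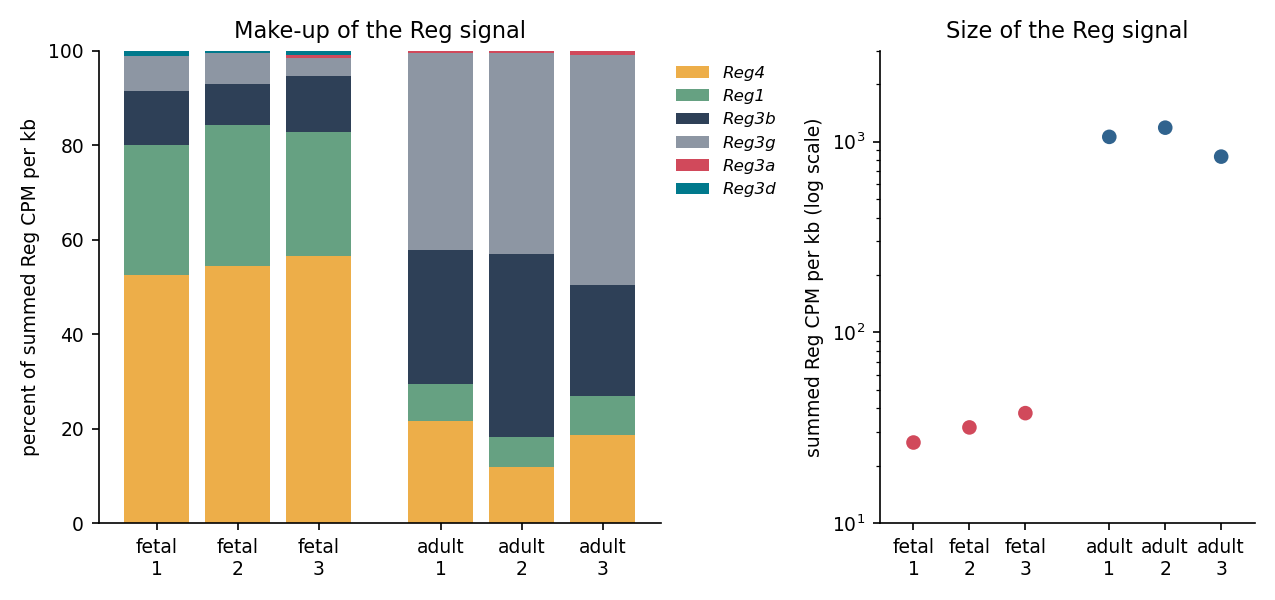
Left, the percent of the summed REG level (CPM per kb) taken by each REG gene in each library; right, that sum on a log axis, fetal in red and adult in blue. Reg4 and Reg1 fill most of the fetal bars and Reg3g and Reg3b most of the adult bars, while the sum is 26.5 to 37.8 in fetal and 836 to 1185 CPM per kb in adult libraries.

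Reg3g and Reg3b were also set against each other within each library. Reg3g had 0.632, 0.765 and 0.324 counts for each Reg3b count in fetal libraries, against 1.45, 1.08 and 2.06 in adult libraries. Reg3b was the larger of the pair in every fetal library and Reg3g in every adult library. The mean log2 ratio, with 0.5 added to each count, was -0.87 ± 0.64 in fetal and 0.56 ± 0.46 in adult libraries (SD, n = 3), a difference of -1.43 (two-sided exact permutation p = 0.1, again the smallest possible). The fetal ratios rest on 12 to 13 Reg3g counts per library. Their longest transcripts were 67.4% identical over the alignment, with a longest identical run of 35 bases, so short reads from that stretch could be assigned to either gene. Summed as 1 row, Reg3b and Reg3g had a log2 fold change of -7.18. Reg1 and Reg4, by contrast, kept overlapping proportions, with 0.465, 0.486 and 0.412 Reg1 counts for each Reg4 count in fetal libraries, against 0.316, 0.467 and 0.396 in adult libraries.

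The Reg cluster on chromosome 6 spans 98.0 kb of mm10, from 78370885 to 78468874, and holds 6 genes. The members within it are Reg3b (78370885 to 78373466), Reg3a (78380709 to 78383839), Reg1 (78425983 to 78428668) and Reg3g (78466269 to 78468874), with Reg3d and Reg2 between them. Reg3g and Reg3b, which had the more negative values, stand at opposite ends, and Reg1, with the smallest fall of the 4, lies between them. Reg4 stands alone on chromosome 3 (98222138 to 98236748) and Pigr on chromosome 1 (130826684 to 130852249). The immunoglobulin receptor genes on either side of Pigr had few counts in both groups. Fcamr, a receptor for IgA and IgM that lies 0.8 kb from Pigr, had 19 fetal and 27 adult counts, and Fcmr, an IgM receptor, had 7 fetal and 2 adult counts, and neither was tested. The next genes on the far side of Fcamr rose, AA986860 by a log2 fold change of 1.13 ± 0.09 and the glycolytic regulator Pfkfb2 by 0.68 ± 0.20 (edgeR adjusted p = 3.27e-07 and 0.00984).

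**Figure D4:**
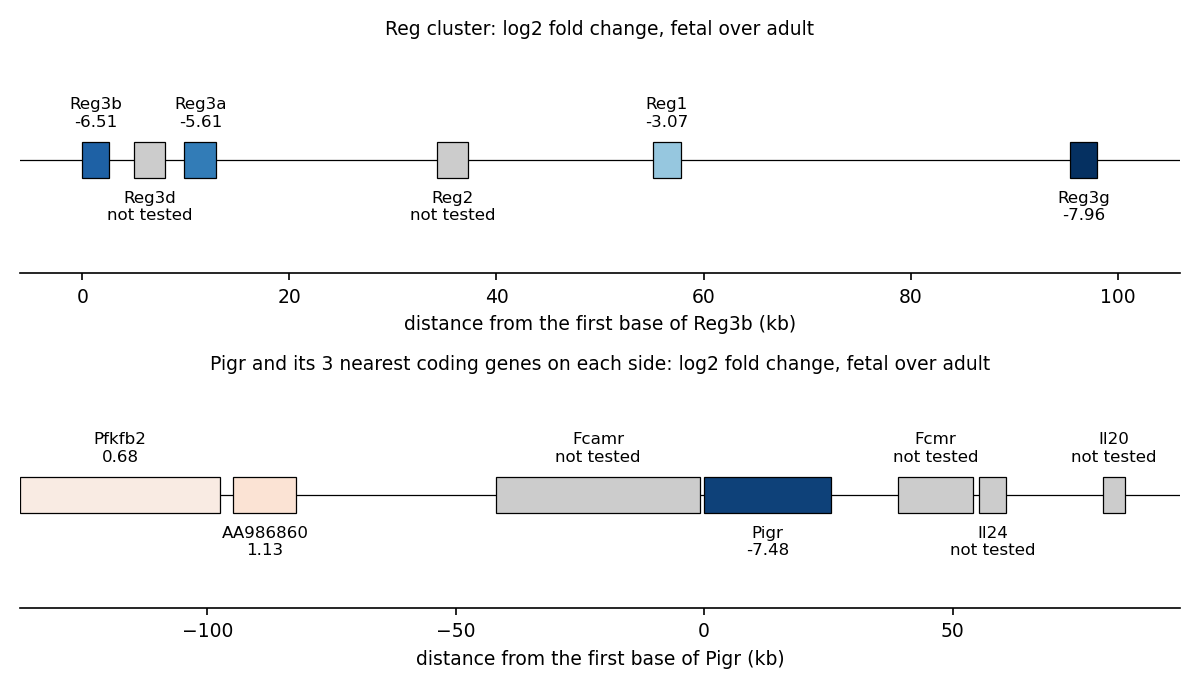
Maps of the Reg cluster (top) and of Pigr with its 3 nearest coding genes on each side (bottom), by distance in kb, with the log2 fold change of fetal over adult written at each gene and coloured blue below 0 and red above (grey, not tested). The 4 tested genes of the cluster lie between -7.96 and -3.07, and Pigr stands at -7.48 beside genes that were not tested or rose.

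Genes of the route that induces REG3 lectins, from the receptors of interleukins 22, 6 and 17 to STAT3 and its feedback inhibitors, moved in both directions. Of 16 tested genes 10 fell (62.5%) and 3 rose (18.8%), beside 25.9% lower and 29% higher over all tested genes. The median log2 fold change of the list was -0.33. Pim1, a kinase induced by STAT signalling, had a log2 fold change of -2.50 ± 0.12, Bcl3, a nuclear partner of NF-kB, of -2.23 ± 0.12 and the interleukin 17 receptor chain Il17rc of -1.63 ± 0.12 (edgeR adjusted p of at most 9.90e-08). The 3 that rose, named after their values were seen, were Il22ra1 and Il10rb, which form the interleukin 22 receptor, at 0.98 ± 0.11 and 0.84 ± 0.09, and the interleukin 11 receptor Il11ra1 at 1.92 ± 0.25. Il22ra1 stood at 91.8 ± 7.86 CPM in fetal libraries, against 46.7 ± 5.97 CPM in adult libraries (SD, n = 3). Stat3, also named after its value was seen, stood at 62.8 ± 8.68 CPM in fetal libraries, against 80.1 ± 9.78 CPM in adult libraries, and its log2 fold change of -0.35 ± 0.12 (edgeR adjusted p = 0.0251) was not called without fetal replicate 1 or 2 or adult replicate 2. Il6ra, Tyk2 and Socs1 were not called, Osmr had too few counts for a test, and Il22ra2, a soluble decoy receptor, had 0 counts.

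Of 22 tested genes of microbe sensing and NF-kB signalling, which act upstream of Reg3g and Pigr, 14 fell and 2 rose, with a median of -0.68. Of these, 1 that fell (Tlr1) had a fetal mean, and 1 that rose (Tlr5) an adult mean, under the filter's level. The NF-kB subunit Relb had a log2 fold change of -3.09 ± 0.16, the transcription factor Irf1, an inducer of Pigr, of -1.88 ± 0.10, and Tlr3, a receptor for double-stranded RNA, of -2.79 ± 0.17. Tlr1, a partner of Tlr2 in sensing lipopeptides (named after its value was seen), fell and had 1 fetal and 171 adult counts, an adult-to-fetal ratio of 263 with an exact 95% counting interval of 46.6 to 10464. The flagellin receptor Tlr5 rose, to 35.99 ± 3.63 CPM in fetal cells against 0.697 ± 0.625 CPM in adult cells, where it had 12 counts in all. Its log2 fold change was 5.67 ± 0.34 (edgeR adjusted p = 1.90e-08) and lay between 5.08 and 6.33 when adult replicate 2 or 3 was left out. Ticam1, the adaptor of Tlr3 and the other gene that rose, was at 0.30 ± 0.09.

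The machinery that moves Pigr through the cell was called about as often as tested genes at large. Of 26 tested genes of polymeric immunoglobulin receptor sorting and transcytosis 8 fell (30.8%), 9 rose (34.6%) and 9 were not called, beside 25.9% lower and 29% higher over all tested genes. The list median was 0.05, and 2 of the 9 that rose, Rab11fip5 among them, had an adult mean under the filter's level. Rab11fip5, an effector of the recycling GTPase Rab11, averaged 88.1 ± 3.75 CPM in fetal libraries, against 0.460 ± 0.0925 CPM in adult libraries, where it had 8 counts in all. Its log2 fold change was 7.53 ± 0.19 (edgeR adjusted p = 1.05e-11). The related effector Rab11fip1 fell by 1.02 on the log2 scale, Egfr fell by 0.63 and Rab11a rose by 0.59. Ap1m2, the epithelial clathrin adaptor subunit for basolateral sorting, was not called, with a log2 fold change of 0.0078 ± 0.10 (named after its value was seen).

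Among 7 other receptors that bind immunoglobulin or are listed with them, 3 could be tested. Fcgrt, the neonatal Fc receptor that carries IgG across the gut of suckling rodents, rose, to 177 ± 41.5 CPM in fetal cells against 38.2 ± 1.75 CPM in adult cells (log2 fold change 2.21 ± 0.16, edgeR adjusted p = 8.46e-08). Pigr and Fcgrt thus moved in opposite directions. Trim21, a cytosolic antibody receptor, fell to 7.67 ± 0.893 CPM in fetal libraries, against 17.8 ± 0.4997 CPM in adult libraries. Tfrc, the transferrin receptor, which can bind IgA in humans, fell by 0.59 (edgeR adjusted p = 0.0332) on the log2 scale and was not called by DESeq2 or without adult replicate 1 or 2.

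Most tested signals that bring IgA plasma cells to the epithelium or sustain them fell. Of 8 tested genes 5 fell, 2 of them with a fetal mean under the filter's level, and 1 rose, with a median of -1.55. Ccl28, a chemokine for IgA plasma cells, stood at 3.52 ± 0.994 CPM in fetal libraries, against 115.8 ± 21.3 CPM in adult libraries, and Ccl25, the small intestinal homing chemokine, at 118 ± 8.18 CPM in fetal libraries, against 362 ± 30.5 CPM in adult libraries. The log2 fold changes were -5.001 ± 0.19 and -1.61 ± 0.09 (edgeR adjusted p = 3.31e-10 and 1.26e-08). Tnfsf13, the class switch factor APRIL, was at -5.004 ± 0.36, and Aldh1a1, a retinoic acid enzyme, rose by 1.78. Plasma cells lie outside both sort gates, so the counts of their markers say nothing of their number in the tissue. Jchain, the joining chain of IgA, had 2 fetal and 15 adult counts, and Tnfrsf17, a receptor of plasma cells, had 0 counts in both groups. Of 12 plasma and B cell markers 9 had a row. They summed to 280 to 318 CPM in fetal libraries, against 279 to 296 CPM in adult libraries, and 3 of them could be tested. Of these 3, 0 were called by edgeR's quasi-likelihood test, with 0 at an unadjusted p under 0.05 and 0 by DESeq2. Among the 9 with a row, 1 was called lower with no filter and 1 lower without adult replicate 1, whereas 1 was called higher without fetal replicate 1.

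Among other secreted antimicrobial proteins 7 of 10 tested genes fell and 1 rose, with a median of -3.78. Of those 7, 5 had a fetal mean under the filter's level of 1.44 CPM and so were tested through the adult group, where they had to be higher. The peptidoglycan-binding lectin Zg16 of goblet cells stood at 7.37 ± 1.66 CPM in fetal libraries, against 2309 ± 968 CPM in adult libraries (log2 fold change -8.28 ± 0.36). The galactofuranose-binding lectin Itln1 was at -7.48 ± 0.28, the oxidase Duox2 at -5.29 ± 0.28, or -6.10 without fetal replicate 3, and the lysozyme Lyz1 at -3.14 ± 0.20. Lectins as a class were mixed, with 6 of 14 tested gut lectins lower (42.9%) and 2 higher (14.3%) and a median of -0.12. Of those 6, 1 had a fetal mean under the filter's level. Zg16 and Itln1 are in both lists. Lgals9 and Lgals2, galectins that bind galactosides, fell by 2.91 and 2.03 on the log2 scale.

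**Figure D5:**
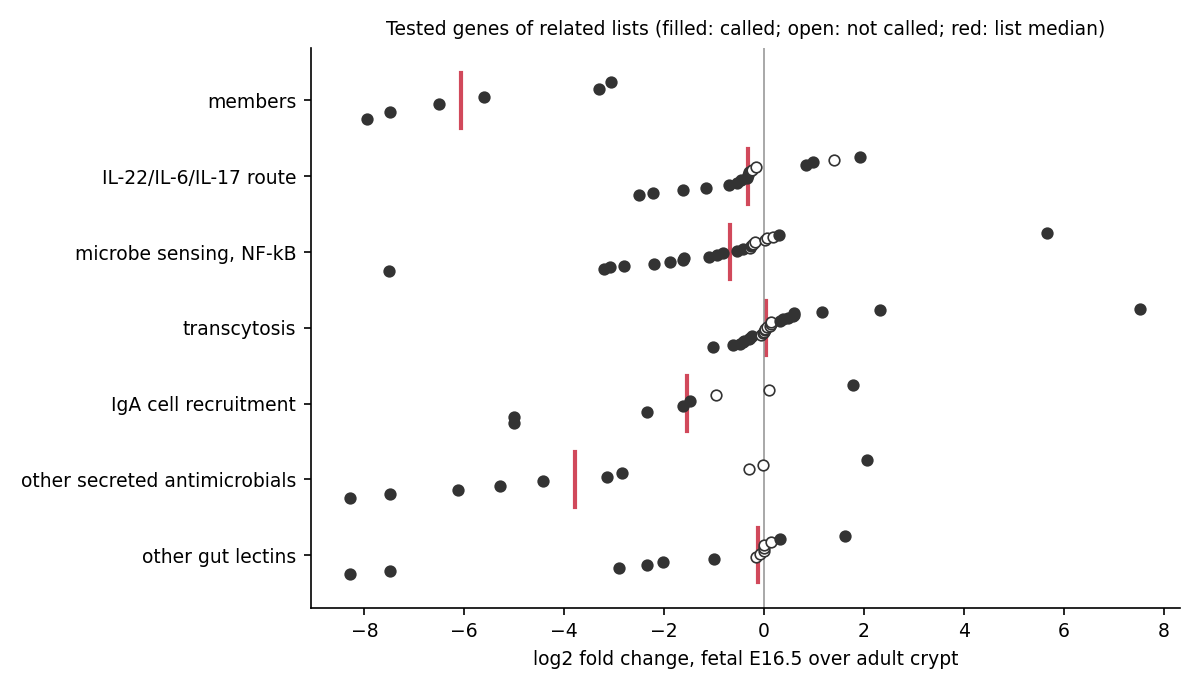
Log2 fold change, fetal over adult, of every tested gene of 7 lists (filled, called at an adjusted p under 0.05; open, not called; red bar, list median). The members and the other secreted antimicrobials have medians of -6.06 and -3.78, whereas the transcytosis list is centred at 0.05. Among the genes that fell, 2 members and 5 antimicrobials had a fetal mean under the filter's level and were tested through the adult group.

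The genes whose pattern over the 6 libraries was most like that of Reg3g were Arg2, an arginase, Olfm4, a crypt stem cell marker, and Akp3, an intestinal phosphatase. Likeness was the root mean square distance of log2(CPM + 1) after centring each gene, and these distances were 0.43, 0.47 and 0.48 among 10038 candidate genes. For Pigr they were Arg2 at 0.46, Olfm4 at 0.61 and Zg16 at 0.63. Arg2 stood at 0.561 ± 0.348 CPM in fetal libraries, against 143 ± 5.14 CPM in adult libraries, and Olfm4 at 90.8 ± 15.2 CPM in fetal libraries, against 7470.3 ± 1239 CPM in adult libraries. The distance is set mainly by the gap between the 2 groups, which differ in gate, age and sex composition, and it says nothing of control within a group.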

How the data were processed

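The deposited values are whole-number counts per Entrez gene with unequal library totals, hence without normalization. For these libraries, the build mm10 and edgeR appear in the submitters' processing notes. The processing notes of the series as a whole also name featureCounts, a counter, without a version. Aligner, annotation and strand setting: not given in the sources used here. Adult libraries were prepared with a Pico input SMARTer kit that keeps strand, per the labels' protocols, and no kit is named for the fetal cells. Groups and replicate numbers came from the titles. A table of 9 organoid columns without gene identifiers was not used.

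The 24594 rows entered edgeR 4.0.16 (R 4.3.3) and its quasi-likelihood test after filterByExpr by group, with TMM factors and no covariate, and p-values were adjusted over all 13314 tested genes. The SE is the log2 fold change divided by the root of F, an approximation. CPM values were scaled by TMM. A floor of 3 counts stands for a count of 0, and floors and intervals cover counting error only. Rn45s, a ribosomal RNA precursor, took 7.32% to 10.7% of a library and was kept. The 4 Y-linked genes examined had 380 to 1036 counts per fetal library and 0 per adult library, so sex composition changed with age. Alternatives were RLE factors, library size only, DESeq2 1.42.0, no or a stricter filter (10 counts in every library of a group), a replicate block, leaving out Rn45s or each library in turn, and summing Reg3b with Reg3g. The procedure was tested on simulated counts.

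The members and lists were chosen with earlier results of these data known. The text names all members, Reg2 and Reg3d, up to 4 called genes of each list with the smallest p, and the 3 genes nearest to Reg3g and Pigr among genes with an average log2 CPM of at least 3. Other list genes were named after their values were seen, and neighbours at each locus were taken by position. No member overlaps another gene in GENCODE vM21. Some genes that the naming rule picks are not reported here.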

Additional observations from a re-analysis of the deposited data

How the results depend on the processing

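The 6 members were called lower under all 13 alternatives of normalization, test, filter, block and left-out library. Without 1 library each, the log2 fold change ran from -8.06 to -7.78 in Reg3g, -7.57 to -7.38 in Pigr, -6.78 to -6.16 in Reg3b, -7.89 to -5.17 in Reg3a, -3.48 to -3.08 in Reg4 and -3.16 to -2.95 in Reg1. Genes called numbered 7304, 6397 to 7261 without 1 library and 6738 to 8205 under the other alternatives. The Reg3g to Reg3b log2 ratio differed by -1.68 to -1.07 without 1 library, and the REG share by -0.0876 to -0.0752 percentage points. Of 494 counts of list members called under an alternative, 481 stayed within 1.5 times.

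Replicate numbers did not pair the libraries: deviations of same-numbered fetal and adult libraries had correlations of -0.06, -0.04 and -0.09. With the replicate block, 6886 genes and 6 members were called, Reg3g was at -7.94 and Pigr at -7.49, and the paired sign-flip p of the ratio and the share was 0.25, the smallest 3 pairs allow. Fetal depth limits Reg3a and Reg3g, with 2 and 37 counts over the group.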

Other observations

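The genes around Reg4 and the Reg cluster changed in both directions. Near Reg4 on chromosome 3, the serine synthesis enzyme Phgdh rose by a log2 fold change of 2.00 ± 0.25 and Zfp697 by 2.04 ± 0.22 (edgeR adjusted p = 2.05e-05 and 4.46e-06), while Notch2, a receptor of the Notch pathway on the other side of Reg4, fell by 0.52 (edgeR adjusted p = 0.00185). Adam30 and Gm5544 had 4 or fewer counts in either group.

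The nearest coding genes of the Reg cluster lie far off. Ctnna2, which lies 391 kb from the cluster, had 18 fetal and 0 adult counts, and Lrrtm4 had 7 fetal and 0 adult counts, and neither was tested. Gm20594, the nearest on the other side at 1349 kb, fell by 1.42 on the log2 scale (edgeR adjusted p = 0.00124). Gcfc2, 3442 kb away, averaged 21.9 ± 3.90 CPM in fetal libraries, against 23.4 ± 1.69 CPM in adult libraries, and was not called (edgeR adjusted p = 0.644).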
